A study of Mus musculus with 4 samples.

Results

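The genes described here are those for insulin-like growth factor 1 (Igf1), its receptor (Igf1r) and the binding proteins Igfbp2, Igfbp3, Igfbp4, Igfbp5, Igfbp6 and Igfbp7. They were chosen by symbol, and all 8 were found among the 55141 genes of the deposited TPM values. RNA came from cultured articular chondrocytes, the cells that make cartilage matrix, which were released from the femoral heads of C57BL/6 mice (strain C57BL6/J on the label of the mimic library) at 3 weeks of age with 3.5 mg/ml collagenase and grown in medium with 10% serum. There were 4 libraries, 1 for each condition: wild type; Cart-miR-23clus KO, in which Col2a1-cre deleted the floxed miR-23a and miR-23b clusters; miR-26a KO, from miR-26a -/- mice; and miR-26a KO with mimic, in which miR-26a -/- cells were transfected with a miR-26a mimic. The Col2a1 promoter drives Cre in cells that make type II collagen, and the deletion passes to their descendants. How many cells of the culture had lost the clusters was not measured here. The first library is wild type by its label. The paper calls the comparator of this experiment both wild-type and Control. The control mice of the methods were floxed without Cre, so the genotype behind ratios to wild type is not certain. Whether the cells of the miR-26a KO library received a control transfection is not given. With 1 library per condition the differences have no replicate check, and no test between conditions was made.

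IGF-I is a secreted growth factor that promotes matrix synthesis and survival of chondrocytes. It acts through IGF1R, a receptor tyrosine kinase that passes the signal to IRS adaptors, PI3K and Akt. The binding proteins hold IGFs outside the cell, which can keep them from the receptor or store them near it, and proteases such as PAPP-A release them. IGFBP-7 is a relative of the others that binds IGFs weakly.

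The deleted and added miRNAs are shown because each recognises mRNAs mainly through its seed, bases 2 to 8, given in capitals. The sequences are from RefSeq.
mmu-miR-26a-5p: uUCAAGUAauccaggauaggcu
mmu-miR-23a-3p: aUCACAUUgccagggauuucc
mmu-miR-27a-3p: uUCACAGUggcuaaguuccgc
mmu-miR-24-3p: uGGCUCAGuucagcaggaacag
The first is the sense strand of the mimic as the labels give it, and the other sequences are of miRNAs from the deleted clusters. The seed of miR-26a-5p is shared by mmu-miR-26b-5p, so a match to it is not particular to miR-26a. Matches to the seeds (TACTTGA for miR-26a, AATGTGA for miR-23, ACTGTGA for miR-27 and CTGAGCC for miR-24, on the sense strand) were sought in the longest annotated 3′ UTR of each gene in GENCODE on GRCm38. Igf1 and the binding proteins Igfbp4 and Igfbp5 held at least 1 match, and Igf1r, Igfbp2, Igfbp3, Igfbp6 and Igfbp7 held none.

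The 3′ UTR of Igf1 is 6308 bases long and held 2 matches for miR-26a and 1 for miR-23, in capitals below. They lie on the plus strand within chr10:87932760-87932784, chr10:87934318-87934342 and chr10:87934140-87934164, the stretches printed, in that order.
Igf1, miR-26a, first match: agcaagaattgcTACTTGAggggca
Igf1, miR-26a, second match: tctttaagaaagTACTTGActaaaa
Igf1, miR-23: tctttgaatgtcAATGTGAaatgtg
Of 612 UTRs of like length, 38.7% held a match for miR-26a and 48.0% one for miR-23. Over all 20676 UTRs searched the shares were 9.84% for miR-26a, 15.3% for miR-23, 16.3% for miR-27 and 16.5% for miR-24.

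The 3′ UTR of Igfbp4 is 2813 bases long and held 2 matches for miR-23 and 3 for miR-24. The miR-23 matches lie on the plus strand within chr11:99051973-99051997 and chr11:99052347-99052371. The first 2 miR-24 matches lie within chr11:99051764-99051788 and chr11:99052323-99052347, and the last within chr11:99054232-99054256.
Igfbp4, miR-23, first match: ctccgattgtagAATGTGAcgaggt
Igfbp4, miR-23, second match: gagagaggaaagAATGTGAgattgg
Igfbp4, miR-24, first match: tacaggataagcCTGAGCCttctcg
Igfbp4, miR-24, second match: gggctcatcactCTGAGCCtgcagg
Igfbp4, miR-24, last match: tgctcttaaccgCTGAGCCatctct
Among 2618 UTRs of like length, 29.3% held a match for miR-23 and 29.0% one for miR-24.

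Igfbp5 had 1 match for miR-24 in a 3′ UTR of 4445 bases, on the minus strand within chr1:72859855-72859879.
Igfbp5, miR-24: cccaagaaaagaCTGAGCCaggaac
Such a match was present in 38.1% of 1358 UTRs of like length. The 3′ UTRs of Igfbp2, Igfbp6 and Igfbp7 are short, at 312, 209 and 240 bases, and among UTRs of the length of Igfbp6 only 1.46% held a match for miR-26a. The UTRs of Igf1r and Igfbp3 are 7267 and 1435 bases long. A match of 7 letters describes the sequence and does not show that a miRNA binds there.

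Libraries were made from the 3′ ends of mRNAs, so a read stands for an mRNA end. The reads on genes used here numbered 1498579 in wild type, 1328042 in the Cart-miR-23clus KO library, 1362870 in miR-26a KO, and 1449246 with mimic, a library whose reads were recovered from its TPM values. A gene with 0 reads may therefore reach 2.00 to 2.26 CPM (reads scaled to one total per library). All 8 chondrocyte markers had reads in every library, and 5 endothelial markers summed to at most 0.406 TPM. Summed levels of other marker lists differed between libraries: 12 macrophage markers summed to 1128 TPM in wild type, 1369 in the Cart-miR-23clus KO library, 406 in miR-26a KO and 759 with mimic, and 8 osteoblast markers to 6675, 2595, 4165 and 4533 TPM in the same order. The targeted miRNA loci had 0 reads in every library and gave no check of the labels.

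Ratios below are of deposited TPM, and a gene was counted as past 2-fold with a ratio above 2 or below 0.5 where it had at least 40 reads in the 2 libraries together. The interval after a ratio is an exact Clopper-Pearson 95% interval of the ratio of CPM, which is 1.025 times the TPM ratio for Cart-miR-23clus KO against wild type and 1.001 to 1.025 times it in every comparison given. Intervals cover counting error only and compare libraries. Both knockouts were compared with the same wild-type library, and the mimic comparison shares miR-26a KO. Because the mRNA comes from whole cultures, fewer cells of a type and less RNA per cell cannot be told apart.

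Levels of the 8 genes spanned more than 3 orders of magnitude on the TPM scale, which divides reads by gene length. On this scale Igfbp7 and Igfbp4 were the highest, with 599 to 672 TPM for Igfbp7 and 461 to 623 TPM for Igfbp4. By reads the order differed: in wild type Igfbp4 had 2493, Igfbp5 841, Igfbp7 698, Igf1r 111 and Igf1 52. Igfbp5 had 67.7 to 134 TPM, Igf1 35.8 to 117 TPM, and Igf1r 8.78 to 10.0 TPM. Igfbp2 had 4.83 to 17.7 TPM, Igfbp6 2.84 to 48.2 TPM and Igfbp3 at most 3.05 TPM. The widest range between libraries belonged to Igfbp6, in which the highest TPM was 17.0 times the lowest, and Igfbp7 and Igf1r varied least, at 1.12 and 1.14 times.

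**Figure D1:**
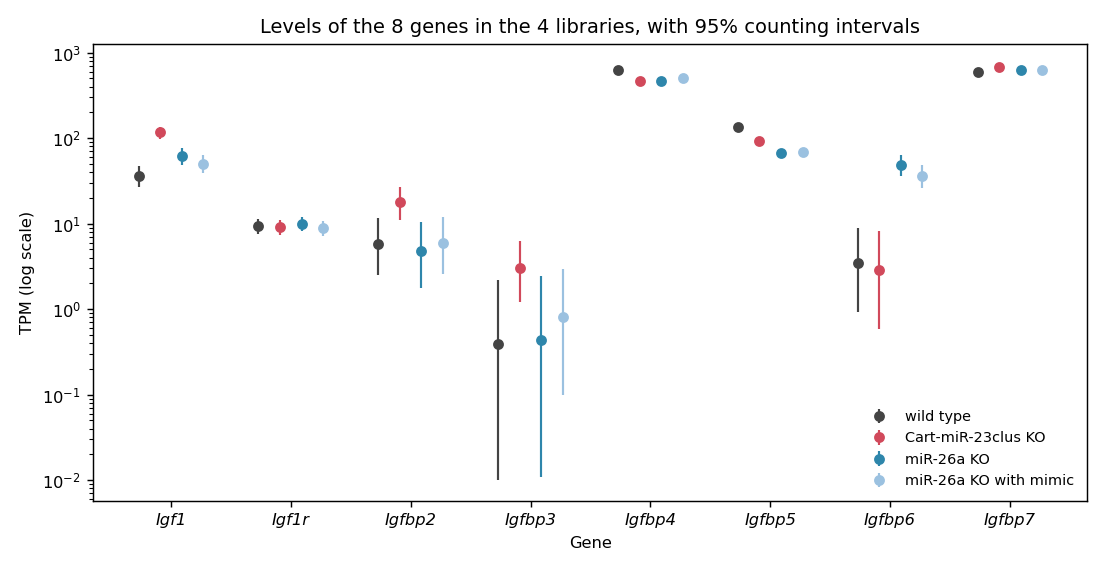
TPM (log axis) of the 8 genes in the 4 libraries; points are the deposited TPM and bars exact 95% Poisson intervals of the reads, rescaled to TPM. Igf1 was highest in Cart-miR-23clus KO at 117 TPM, Igfbp6 was at 48.2 and 36.2 TPM in the libraries of miR-26a KO cells and under 4 TPM in the others, and Igf1r and Igfbp7 were nearly level.

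Igf1 (ENSMUSG00000020053, GRCm38 chromosome 10, 87858265 to 87937042, plus strand) encodes the ligand. It had 52 reads in wild type, 154 in the Cart-miR-23clus KO library, 81 in miR-26a KO and 71 with mimic, which were 35.8, 117, 61.2 and 50.1 TPM. The Cart-miR-23clus KO library was the highest and wild type the lowest. Against wild type the TPM ratio was 3.26 (2.43 to 4.67) in the Cart-miR-23clus KO library and 1.71 (1.19 to 2.48) in miR-26a KO. Cart-miR-23clus KO was also above the 2 libraries of miR-26a KO cells, by 1.91 times without mimic (1.48 to 2.59) and 2.33 times with it (1.78 to 3.18). With mimic against miR-26a KO the ratio was 0.819 (0.591 to 1.15), and with mimic against wild type 1.40 (0.973 to 2.06), so that neighbours in the order miR-26a KO, mimic and wild type were not separated at this depth. Igf1 also overlaps an annotated antisense gene, Igf1os, and the strand setting of the counting is not given in the sources used here.

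In Cart-miR-23clus KO, Igf1 was the only one of the 5 genes with enough reads that was past 2-fold upward, where 3.11% of 7531 genes were (Igfbp2, Igfbp3 and Igfbp6 had too few reads), and none was past it downward, where 2.78% were. Its ratio lay at percentile 99.3 among those genes. Other marker sums also differed in that library: 5 of 5 adipocyte markers were higher, with sums of 147 TPM in wild type and 435 TPM in the Cart-miR-23clus KO library, and 9 of 12 macrophage markers were higher, with a summed ratio of 1.21. Most of the adipocyte sums came from Fabp4 and Lpl, at 60.9 and 78.6 TPM in wild type and 262 and 159 TPM in the Cart-miR-23clus KO library. In the same order of libraries Adipoq had 8 and 9 reads, Plin1 0 and 1, and Cfd 1 and 5. Smooth muscle markers summed to 157 TPM in wild type and 342 TPM in the Cart-miR-23clus KO library, a ratio of 2.17, with 3 of 4 higher (Tagln had 3 and 37 reads) and Myh11 at 0 in every library. In miR-26a KO all 12 macrophage markers were lower than in wild type, with a summed ratio of 0.360, while Igf1 was higher. The part of such cells in the Igf1 levels was not tested.

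Igf1r (ENSMUSG00000005533, chromosome 7, 67952827 to 68233668, plus strand) encodes the receptor. It had 111 reads in wild type, 98 in the Cart-miR-23clus KO library, 109 in miR-26a KO and 102 with mimic, or 9.31, 9.05, 10.0 and 8.78 TPM. The 4 libraries lay close together. The ratio was 0.972 (0.751 to 1.32) in the Cart-miR-23clus KO library, 1.08 (0.821 to 1.42) in miR-26a KO and 0.874 (0.665 to 1.16) with mimic against miR-26a KO. Each interval included 1, and at this depth ratios between 0.751 and 1.32 could not be told from 1 in the first of these comparisons.

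**Figure D2:**
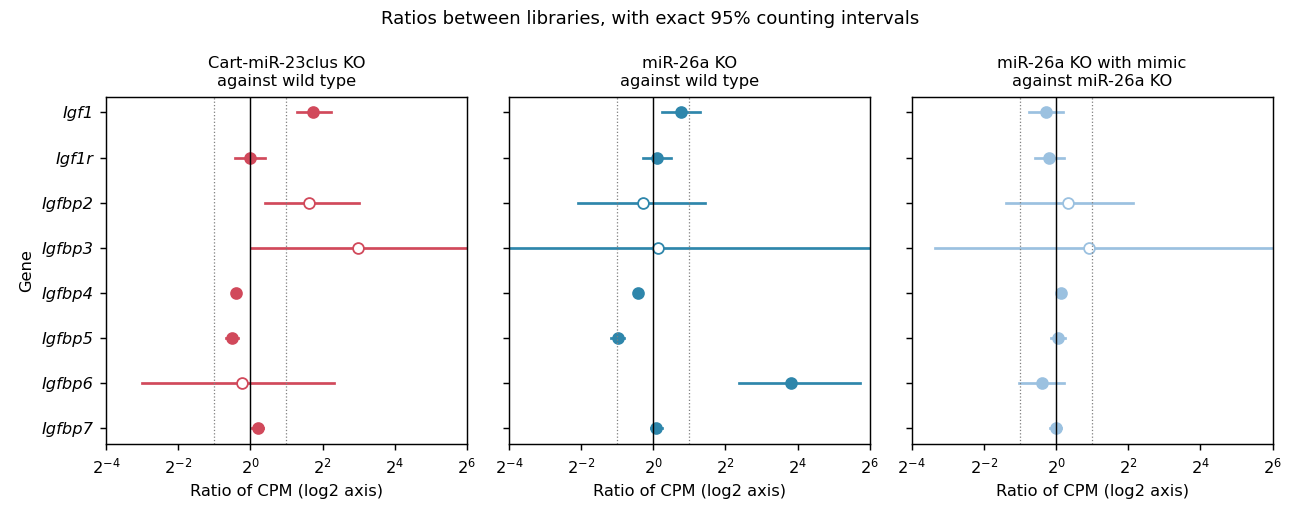
Ratios of CPM (log2 axis) for the 3 comparisons, with exact 95% counting intervals; open circles mark genes with fewer than 40 reads in the 2 libraries, dotted lines are ratios of 0.5 and 2, and intervals of Igfbp3 run past the plot. Igf1 in the Cart-miR-23clus KO library and Igfbp6 in miR-26a KO lay beyond 2 with at least 40 reads, and no gene with that many reads did so in the mimic comparison. Igfbp6 had that many only through miR-26a KO, in which it was high.

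Igfbp4 (ENSMUSG00000017493, chromosome 11, 99041244 to 99054392, plus strand) encodes a binding protein that is cleaved by PAPP-A. It had 2493 reads in wild type, 1678 in the Cart-miR-23clus KO library, 1681 in miR-26a KO and 1957 with mimic. The levels were 623, 462, 461 and 502 TPM, highest in wild type. The ratio to wild type was 0.741 in the Cart-miR-23clus KO library (0.714 to 0.808) and 0.741 in miR-26a KO (0.697 to 0.789). With mimic Igfbp4 was 1.09 times miR-26a KO (1.03 to 1.17) and 0.806 times wild type (0.765 to 0.862). The Cart-miR-23clus KO library had 1.00 times the level of miR-26a KO (0.957 to 1.10). Of the 6 genes with enough reads in the mimic comparison, Igfbp4 was the only one whose interval left out 1, against 11.3% of 7547 genes.

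Igfbp5 (ENSMUSG00000026185, chromosome 1, 72857932 to 72874884, minus strand) encodes a binding protein that also attaches to extracellular matrix. It had 841 reads in wild type, 523 in the Cart-miR-23clus KO library, 387 in miR-26a KO and 427 with mimic. On the TPM scale these were 134, 91.8, 67.7 and 69.8. Wild type was the highest, Cart-miR-23clus KO lay between, and the 2 libraries of miR-26a KO cells were the lowest and not separated from each other. The ratio to wild type was 0.685 in the Cart-miR-23clus KO library (0.628 to 0.784) and 0.505 in miR-26a KO (0.447 to 0.571), just short of 2-fold, and below 0.5 when scaled by TMM or DESeq2 size factors, at 0.493 and 0.496. Cart-miR-23clus KO was 1.35 times miR-26a KO (1.21 to 1.59). With mimic the ratio to miR-26a KO was 1.03 (0.902 to 1.19). Igfbp5 in miR-26a KO was at percentile 1.85 of the ratios of 7615 genes.

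The chondrocyte marker sum was also lower than in wild type, at 11367 TPM there, 8315 TPM in the Cart-miR-23clus KO library, 8795 TPM in miR-26a KO and 8777 TPM with mimic, ratios of 0.731 in the Cart-miR-23clus KO library and 0.774 in miR-26a KO. Of the wild-type sum, Col2a1 alone gave 7062 TPM. In Cart-miR-23clus KO 6 of 8 markers were lower, with Comp and Matn3 higher and Sox9 at 500 TPM in wild type and 468 TPM there, and in miR-26a KO 7 of 8 were lower. The osteoblast sum had ratios of 0.389 and 0.624, with 7 of 8 and 8 of 8 markers lower. Ibsp alone gave 5063 TPM of that sum in wild type. Spp1 was higher in Cart-miR-23clus KO, at 773 TPM in wild type and 1613 TPM there. The part of chondrocytes or osteoblasts in the levels of Igfbp4 and Igfbp5 was not tested.

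Igfbp7 (ENSMUSG00000036256, chromosome 5, 77349240 to 77408041, minus strand) had 698 reads in wild type, 712 in the Cart-miR-23clus KO library, 673 in miR-26a KO and 713 with mimic. These were 599, 672, 634 and 628 TPM, a narrow range with Cart-miR-23clus KO at the top. The ratio to wild type was 1.12 in the Cart-miR-23clus KO library (1.04 to 1.28) and 1.06 in miR-26a KO (0.952 to 1.18). With mimic against miR-26a KO it was 0.990 (0.895 to 1.11). No neighbouring pair in the order of levels was separated by its interval. Igfbp7 overlaps Polr2b, a subunit gene of RNA polymerase II, on the other strand.

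Igfbp6 (ENSMUSG00000023046, chromosome 15, 102144362 to 102149511, plus strand) encodes a binding protein that prefers IGF-II. It had 4 reads in wild type, 3 in the Cart-miR-23clus KO library, 51 in miR-26a KO and 41 with mimic, or 3.44, 2.84, 48.2 and 36.2 TPM. The 2 libraries of miR-26a KO cells stood apart from the other two. The ratio of miR-26a KO to wild type was 14.0 (5.15 to 53.4), and that of the mimic library to wild type 10.5 (3.84 to 40.7). Cart-miR-23clus KO had 0.0590 times the level of miR-26a KO (0.0121 to 0.187). With mimic against miR-26a KO the ratio was 0.751 (0.489 to 1.16), an interval that included 1. Cart-miR-23clus KO against wild type rests on 7 reads and gave 0.826 (0.124 to 5.00).

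Igfbp6 reached 40 reads in this comparison only through the miR-26a KO library, in which it was high, so its place past 2-fold is a description. In miR-26a KO against wild type 2.6% of 7615 genes were past 2-fold upward and 1.77% downward, and of the other 5 genes with enough reads 0 were past it in either direction. Fibroblast markers summed to 2021 TPM in wild type and 2414 TPM in miR-26a KO, a ratio of 1.19, with 3 of 6 markers higher, 2 lower and Pi16 at 0 in every library. Of these markers Thy1 had 6 reads in wild type, 10 in the Cart-miR-23clus KO library, 20 in miR-26a KO and 21 with mimic. From wild type to miR-26a KO, Dcn went from 1670.4 to 2023.5 TPM and Lum from 327 to 361 TPM. Pdgfra went from 21 to 16 reads and Dpt from 23 to 18 reads. The part of fibroblasts in the Igfbp6 level was not tested.

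Igfbp2 (ENSMUSG00000039323, chromosome 1, 72824503 to 72852474, plus strand) encodes a binding protein for both IGFs. It had 8 reads in wild type, 22 in the Cart-miR-23clus KO library, 6 in miR-26a KO and 8 with mimic, or 5.86, 17.7, 4.83 and 6.01 TPM. The Cart-miR-23clus KO library was above the other 3, which were not separated from each other. The ratio of Cart-miR-23clus KO was 3.03 to wild type (1.33 to 8.06), 3.68 to miR-26a KO (1.48 to 11.3) and 2.95 to the mimic library (1.29 to 7.80). The ratio was 0.824 in miR-26a KO against wild type (0.236 to 2.71) and 1.25 with mimic against miR-26a KO (0.382 to 4.38). With 30 reads in the 2 libraries, Igfbp2 was under the minimum for the counts of genes past 2-fold. The study picked it for a higher level in Cart-miR-23clus KO of both its protein, by proteomics not analysed here, and its mRNA in these same libraries, so that its mRNA ratio is not independent evidence.

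Igfbp2 and Igfbp5 are neighbours on chromosome 1, on opposite strands with their 3′ ends facing across 5457 bases. In Cart-miR-23clus KO the ratio to wild type was above 1 for Igfbp2 and below 1 for Igfbp5, and in miR-26a KO both ratios were below 1, although the interval of Igfbp2 included 1.

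Igfbp3 (ENSMUSG00000020427, chromosome 11, 7206086 to 7213923, minus strand), the main carrier of IGFs in blood, had the lowest TPM of the 8 genes in every library but Cart-miR-23clus KO, where Igfbp6 was lower. It had 1 read in wild type, 7 in the Cart-miR-23clus KO library, 1 in miR-26a KO and 2 with mimic. Its level was 0.395, 3.05, 0.434 and 0.811 TPM. Against wild type the ratio of the Cart-miR-23clus KO library was 7.71 (1.01 to 356), which became 3.96 with 0.5 TPM added and 2.90 with 1 TPM added, and to the mimic library 3.76 (0.727 to 37.7), so its size is hardly bounded. Between miR-26a KO and wild type the ratio of 1.10 had an interval from 0.0140 to 86.3. Igfbp1, the next gene at a distance of 3539 bases, had 0 reads in every library.

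**Figure D3:**
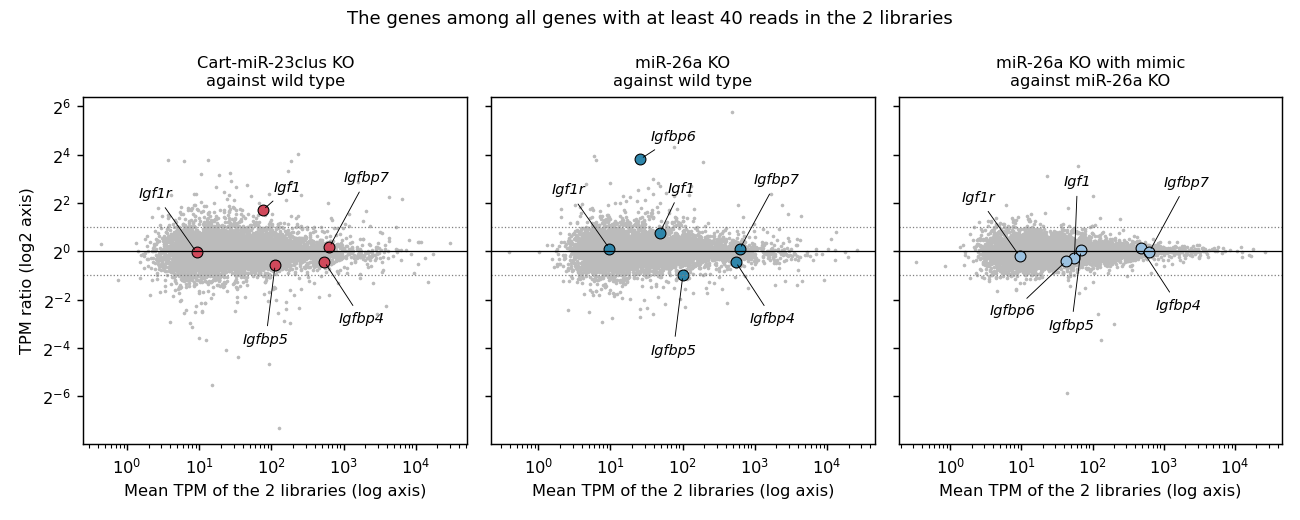
TPM ratio (log2 axis) against mean TPM of the 2 libraries (log axis) for all genes with at least 40 reads in them (grey) and the genes described here (coloured); dotted lines are ratios of 0.5 and 2. Igf1 in the first panel and Igfbp6 in the second lay above nearly all genes, and in the third panel all 6 coloured points were between 0.5 and 2. Igfbp6 entered the second panel only through its high reads in miR-26a KO.

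Read by comparison, the counting interval left out 1 for 4 of 5 genes in Cart-miR-23clus KO against wild type (Igf1, Igfbp4, Igfbp5 and Igfbp7), where it did so for 26.5% of all genes. In miR-26a KO against wild type it left out 1 for Igf1, Igfbp4 and Igfbp5, or 3 of the 5 genes other than Igfbp6, where 21.8% of all genes did so; Igfbp6 did so too, but had enough reads only through its high level. Several of these genes have more reads than most, and more reads give narrower intervals. In the mimic comparison 0 of 6 genes were past 2-fold in either direction, where 0.649% of all genes were upward and 0.517% downward.

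The binding protein mRNAs were also summed, as reads, since each read is an mRNA end. Reads of the 6 genes summed to 2699 CPM in wild type, 2218 in the Cart-miR-23clus KO library, 2054 in miR-26a KO and 2172 with mimic, highest in wild type. For each Igf1 read there were 77.8 binding protein reads in wild type, 19.1 in the Cart-miR-23clus KO library, 34.6 in miR-26a KO and 44.3 with mimic.

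Igfbp4 gave 61.6% of the binding protein reads in wild type (exact 95% binomial interval 60.1 to 63.1), 57.0% in the Cart-miR-23clus KO library (55.2 to 58.8), 60.1% in miR-26a KO (58.2 to 61.9) and 62.2% with mimic (60.4 to 63.9). The share of Igfbp5 was 20.8% in wild type (19.6 to 22.1), 17.8% in the Cart-miR-23clus KO library (16.4 to 19.2), 13.8% in miR-26a KO (12.6 to 15.2) and 13.6% with mimic (12.4 to 14.8). The share of Igfbp7 was 17.3% in wild type (16.1 to 18.5) and 24.2%, 24.0% and 22.6% in the other libraries. Wild type thus had the largest share of Igfbp5 and the smallest of Igfbp7. Igfbp6 took 0.0989% in wild type and 0.102% in the Cart-miR-23clus KO library, but 1.82% in miR-26a KO (1.36 to 2.39) and 1.30% with mimic (0.936 to 1.76), which on deposited TPM were 3.96% and 2.92%. On the TPM scale Igfbp7 had a larger share than Igfbp4 in every library but wild type.

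**Figure D4:**
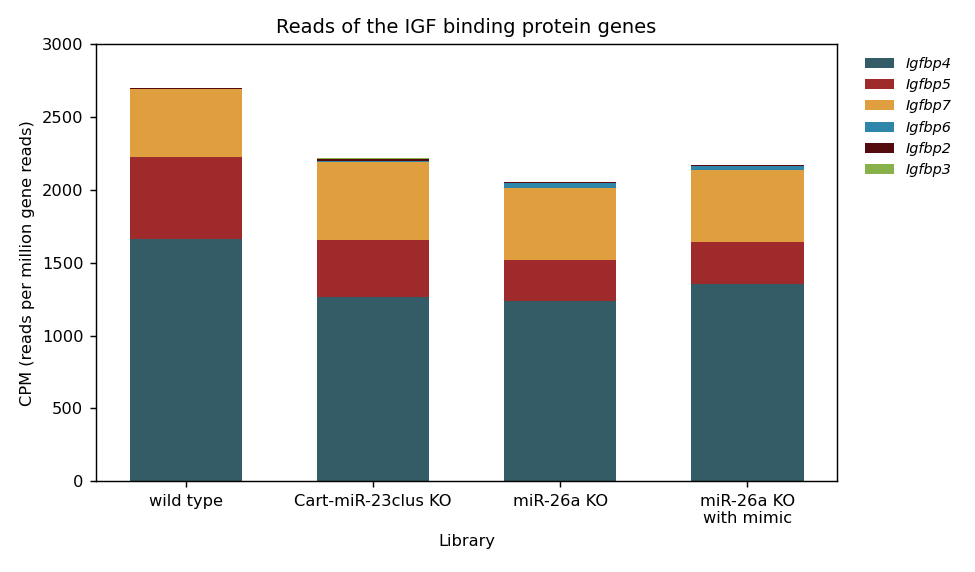
CPM of the 6 binding protein genes in each library, stacked from 0. The total was highest in wild type at 2699, Igfbp4 was the largest part of each bar, and Igfbp6 could be seen in the 2 libraries of miR-26a KO cells.

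A list of 51 other genes of the pathway was set beside these. In Cart-miR-23clus KO against wild type 35 of them had at least 40 reads, of which 3 were above 2 and 2 below 0.5, beside 3.11% and 2.78% of all genes. Of the 3, Tsc1 had enough reads only through the library in which it was high, which leaves Grb14 and Pik3r1. Of the 35, 10 were higher and 25 lower, beside 3610 higher and 3921 lower of the 7531 genes. Their median log2 ratio was -0.19, with -0.02 over all genes. In miR-26a KO 1 of 35 was above 2 and 0 below 0.5, beside 2.6% and 1.77% of all genes. Of these 35, 14 were higher and 21 lower, beside 4078 and 3537 of 7615 genes, with a median of -0.08 beside 0.03 over all genes. With mimic 0 of 37 were past 2-fold, beside 0.649% upward and 0.517% downward of all genes, with a median of -0.12 beside -0.005 over all genes.

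Igf2, the other IGF ligand, had 0 reads in all 4 libraries, which allows up to 2.00 to 2.26 CPM. Its locus overlaps another annotated protein-coding gene on the same strand that also had 0 reads, and reads shared by overlapping genes may go uncounted. Igf2r, which takes up and clears IGF-II, had 27.6 to 31.1 TPM, and its ratio was 0.941 (0.810 to 1.15) in the Cart-miR-23clus KO library and 0.961 (0.810 to 1.14) in miR-26a KO. Insr, the insulin receptor, had 11 to 18 reads per library.

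Among the proteases that cleave binding proteins and their inhibitors, 4 of 7 genes had enough reads in Cart-miR-23clus KO against wild type, and all 4 were lower, as were 3921 of all 7531 genes. Htra1, a serine protease, had 261 reads in wild type, 85 in the Cart-miR-23clus KO library, 303 in miR-26a KO and 361 with mimic. Its ratio to wild type was 0.359 in the Cart-miR-23clus KO library (0.284 to 0.471) and 1.27 in miR-26a KO (1.08 to 1.51). Pappa, the gene of the protease PAPP-A, had 92, 47, 75 and 66 reads in the same order. It was lower in the Cart-miR-23clus KO library, at 0.562 (0.397 to 0.828), and in miR-26a KO the ratio was 0.895 (0.652 to 1.23). Adamts1, a metalloprotease, had 67 reads in wild type and 30 in the Cart-miR-23clus KO library, a ratio of 0.493 (0.317 to 0.788) that was not below 0.5 on CPM or with 0.5 or 1 TPM added. Pappa2 had at most 3 reads in a library. Of the stanniocalcins, which inhibit PAPP-A, Stc2 had a ratio of 0.746 in the Cart-miR-23clus KO library (0.417 to 1.37) and 1.24 in miR-26a KO (0.744 to 2.08), and Stc1 had 12 to 24 reads.

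Of the growth hormone axis, through which growth hormone raises Igf1, 5 of 5 genes had enough reads and none was past 2-fold in any comparison, as few genes were: at most 3.11% of all genes in a direction. Ghr, the growth hormone receptor, had 112 reads in wild type, 76 in the Cart-miR-23clus KO library, 68 in miR-26a KO and 76 with mimic. Its ratio was 0.747 in the Cart-miR-23clus KO library (0.565 to 1.03) and 0.667 in miR-26a KO (0.486 to 0.910). Socs2, a feedback inhibitor of that receptor, had ratios of 1.07 (0.838 to 1.44) and 0.809 (0.604 to 1.08). Stat5a and Stat5b, transcription factors of the axis named here after their values were seen, were lower in Cart-miR-23clus KO, at 0.612 (0.387 to 0.997) and 0.593 (0.369 to 0.980).

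Downstream of the receptor, Irs1, the main adaptor of IGF1R, had 864 reads in wild type, 413 in the Cart-miR-23clus KO library, 511 in miR-26a KO and 582 with mimic. It was lower than wild type in every other library, with ratios of 0.526 in the Cart-miR-23clus KO library (0.479 to 0.607) and 0.650 in miR-26a KO (0.582 to 0.726). Irs2 had 10 to 22 reads per library. Grb10, an adaptor that restrains the receptor, had 596 reads in wild type and 361 in the Cart-miR-23clus KO library, a ratio of 0.667 (0.598 to 0.780), and its ratio in miR-26a KO was 0.861 (0.762 to 0.974). Grb14, a relative of Grb10, was past 2-fold in both comparisons with wild type, with 30, 57, 64 and 66 reads and ratios of 2.09 (1.35 to 3.46) and 2.34 (1.50 to 3.75).

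Pik3r1, the regulatory subunit of PI3K, had 27 reads in wild type, 62 in the Cart-miR-23clus KO library, 41 in miR-26a KO and 45 with mimic. Its ratio in Cart-miR-23clus KO was 2.53 (1.62 to 4.24). Tsc1, a subunit of the complex that restrains mTORC1, had 16 and 35 reads in wild type and Cart-miR-23clus KO, a ratio of 2.41 (1.33 to 4.78), with the limit given above on its reads. Of 18 genes of the PI3K and Akt arm with enough reads 6 were higher and 12 lower in Cart-miR-23clus KO, beside 3610 and 3921 of all 7531 genes. The interval lay above 1 for 2 of them (Pik3r1 and Tsc1) and below 1 for 5, beside 1097 and 896 of all genes. Akt1, a kinase of the pathway, was lower in the Cart-miR-23clus KO library, at 0.796 (0.721 to 0.922), and Akt2 had a ratio of 1.04 (0.899 to 1.26). The other genes with an interval below 1, named after their values were seen, were Pik3ca at 0.616 (0.440 to 0.895), Pik3r2 at 0.654 (0.474 to 0.939), Foxo3 at 0.701 (0.546 to 0.940) and Eif4ebp1 at 0.782 (0.682 to 0.941). Foxo1, a transcription factor that Akt holds out of the nucleus, had 98 reads in wild type, 78 in the Cart-miR-23clus KO library, 129 in miR-26a KO and 76 with mimic. It was 1.45 times wild type in miR-26a KO (1.10 to 1.90) and 0.550 times miR-26a KO with mimic (0.412 to 0.741).

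**Figure D5:**
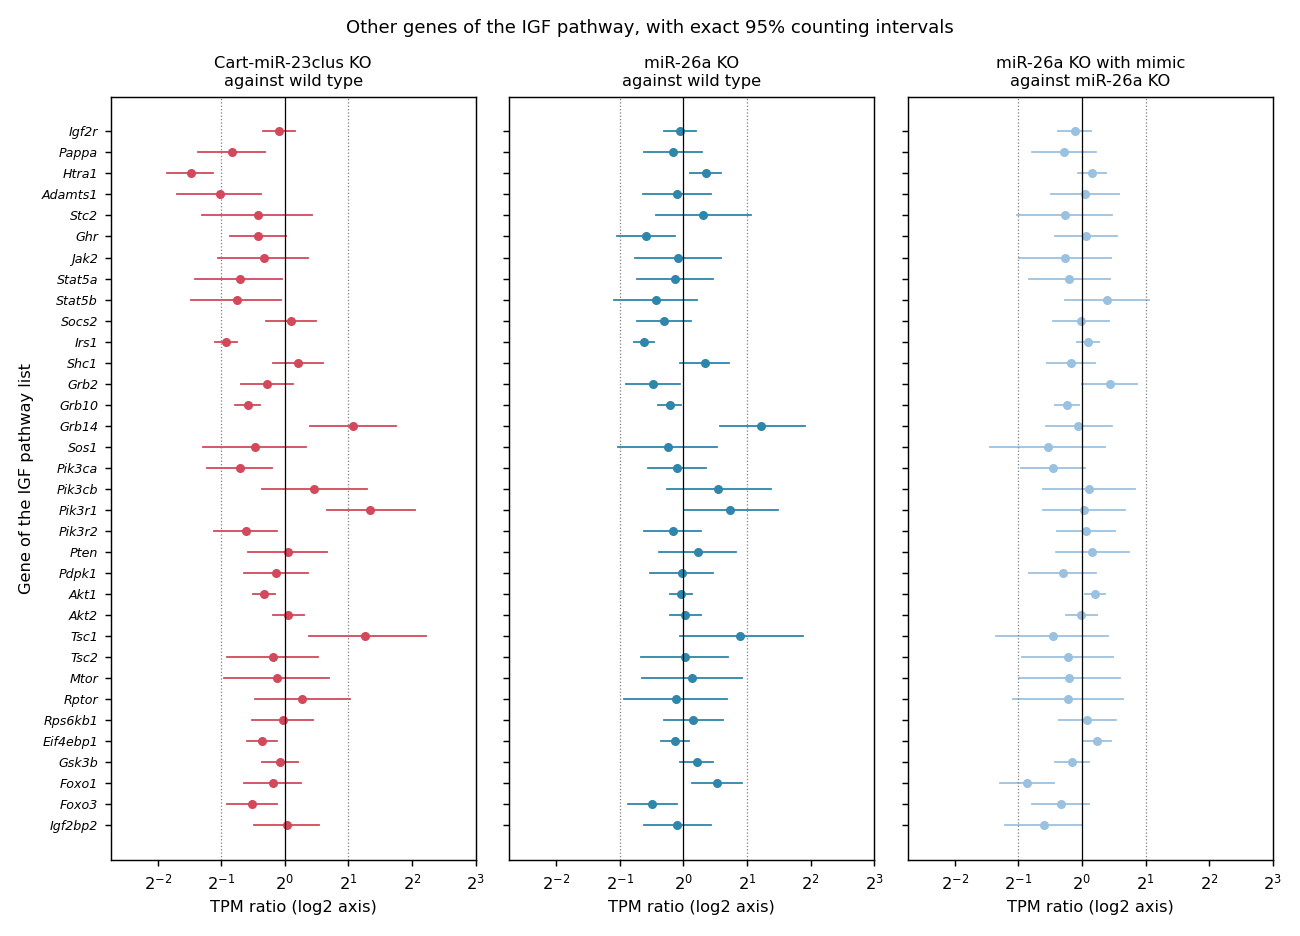
TPM ratios (log2 axis) of the genes of the pathway list with at least 60 reads over wild type and both KO libraries without mimic, with exact 95% counting intervals rescaled to TPM; dotted lines are ratios of 0.5 and 2. Htra1 was the lowest in the first panel at 0.359, Grb14 lay above 2 in the first and second panels, and Foxo1 was the lowest in the third panel at 0.550.

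Genes whose levels over the 4 libraries were most like those of Igf1 were sought among genes with at least 200 reads, by the root mean square difference of log2(TPM + 0.5) after centring. For Igf1 they were Nabp1 with a difference of 0.098, Cyp1b1 with 0.112 and Gfer with 0.151. For Igfbp5 they were Susd5, Txnip and Deptor, all at 0.090 to 0.096. Igfbp2 was most like Srgn, Hs6st2 and Nek6, with differences of 0.128 to 0.179. For Igfbp3, whose own profile rests on 11 reads, they were Fabp4 (one of the adipocyte markers), Plin4 and Zwint, with 0.142 to 0.218. A search for Igfbp6 was added after its values were seen, and Thbs4 was nearest at 0.366, with 24 reads in wild type, 38 in the Cart-miR-23clus KO library, 435 in miR-26a KO and 291 with mimic. S100a4 and Angptl7 followed at 0.723 and 0.835. Likeness over 4 libraries is a description, and many genes can be as close by their number alone.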

How the data were processed

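Reads from 3′ mRNA libraries (QuantSeq FWD, single-end, 75 bases) were mapped by the authors to mm10; the submitters' processing notes name GRCm38.p6, and the aligner, counter and annotation are not given in the sources used here. The authors deposited an estimated count per gene (whole numbers, not normalized) for 3 libraries and TPM for all 4. TPM, as deposited, divides by gene length, which does not suit 3′ reads between genes and cancels in a ratio between libraries. The reads of the mimic library were recovered from TPM steps: 14429 values were whole within 0.01, and 588 genes, up to 29.3 TPM, were not recovered. Library totals ran from 1328042 to 1498579 reads.

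Groups came from the labels. With 1 library per condition no test was possible; TPM ratios past 2-fold and exact Clopper-Pearson 95% intervals on reads were counted over genes with at least 40 reads in the 2 libraries. Alternatives were CPM, edgeR's TMM, DESeq2's size factors, 0.5 or 1 TPM added, other read minimums, a fold of 1.5, 99% intervals, a TMM offset and another comparison library. Of the pathway list, genes of defined roles and all genes past 2-fold are named. Members and lists were chosen with earlier results of these data known. The steps were tested on simulated data. Positions and UTRs came from GENCODE M21 (GRCm38), and miRNA sequences from RefSeq. Tables were made with Python 3.11.15 and its packages scipy 1.17.1, numpy 2.4.6 and pandas 2.3.3, figures with matplotlib 3.10.9, and scale factors with edgeR 4.0.16 or else DESeq2 1.42.0 under R 4.3.3.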

Additional observations from a re-analysis of the deposited data

How the results depend on the processing

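No paired analysis was possible because there is but 1 library of each genotype and treatment, and leaving out a replicate was not possible either. Of 136 values of single genes under other scalings, added TPM or another comparison library, 128 stayed within their counting interval, and the 8 that left it did so with another comparison library. Of those whose interval had left out 1, 2 changed direction and 1 became level: with the miR-26a KO library as comparator for Cart-miR-23clus KO, Igfbp5 went from 0.685 to 1.35 and Igfbp4 from 0.741 to 1.00 (0.957 to 1.10), and with wild type as comparator for the mimic library, Igfbp4 went from 1.09 to 0.806. In that last setting the mimic ratios of Igf1 and Igfbp6, whose intervals had included 1, went from 0.819 to 1.40 and from 0.751 to 10.5, and that of Igfbp5 from 1.03 to 0.521. Shares of all genes were not counted under other settings, so the counts past a fold below, with those of the pathway list, are descriptions. Of the 8 genes, the count above 2 in Cart-miR-23clus KO against wild type became 3 without a minimum of reads (Igf1, Igfbp2 and Igfbp3). In wild type and Cart-miR-23clus KO, Igfbp2 had 8 and 22 reads and Igfbp3 had 1 and 7. With the miR-26a KO library as comparator the count above 2 was 0, and 1 fell below 0.5 (Igfbp6). Igfbp6 had 3 reads in the Cart-miR-23clus KO library and 51 in miR-26a KO. It met the minimum of reads only through the library in which it was high. Against wild type in miR-26a KO, the count above 2 became 2 at a fold of 1.5 and 0 at a minimum of 200 reads, and the count below 0.5, 0 on deposited TPM, became 1 (Igfbp5) under edgeR's TMM, DESeq2's size factors or a fold of 1.5. In the pathway list the 2 genes below 0.5 in Cart-miR-23clus KO became 1 (Htra1, without Adamts1) on CPM, with 0.5 or 1 TPM added and at 200 reads; at 200 reads 0 were above 2 there, where the median was -0.30, and 0 in miR-26a KO, where it was -0.04.

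On TPM in place of reads, the shares of binding protein mRNA (wild type first, Cart-miR-23clus KO second, followed by miR-26a KO without and with mimic) became 45.6%, 36.9%, 37.9% and 40.4% for Igfbp4, 9.82%, 7.35%, 5.57% and 5.62% for Igfbp5, and 43.9%, 53.8%, 52.1% and 50.5% for Igfbp7. Depth limits Igfbp2, Igfbp3 and, outside the miR-26a KO cells, Igfbp6, which had at most 22 reads in a library.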
